A study of Mus musculus with 19 samples.

Results

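The genes described here encode proteins of the Z-disc of heart muscle, proteins that respond to mechanical load there or a relative of these. They are Ankrd1, Csrp3, Fhl1, Fhl2, Actn1, Actn2, Ldb3, Tcap, Des and Flnc, 10 of the 10733 genes tested in the series. Among them Actn1 encodes a non-muscle alpha-actinin, a relative of the Z-disc protein encoded by Actn2. A probe set was used where the array's annotation gave it 1 of these symbols and no other gene. In all, 18 probe sets met that rule, and for each gene the brightest one, by its mean signal on the 19 arrays, was taken. All 10 genes passed the filter on dim probe sets, which asked for a log2 signal above 4 on at least 5 arrays. Of the 18 probe sets 16 passed, and 4 genes (Ankrd1, Actn1, Ldb3 and Flnc) had more than 1 that did.

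Expression was measured on Affymetrix arrays of 19 male C57BL/6 mice, operated at 7 weeks of age and killed 4 weeks later. The aorta was banded, which narrows it and loads the left ventricle with pressure, in 7 mice that had heart failure as the outcome (HF mice) and in 7 that had none (no-HF mice), and 5 mice had a sham operation. No transgene or drug is named in the labels. The tissue is the left ventricle without the atria and the right ventricle, and the labels do not state how heart failure was defined. Values are the deposited log2 signals, 1 array per mouse. On that scale a difference of 1 is a doubling.

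The Z-disc is the border of the sarcomere, where actin filaments of neighbouring sarcomeres are cross-linked by alpha-actinin and titin is anchored. Proteins held there or on titin's elastic part move to the nucleus or change their partners when the muscle is stretched, so the Z-disc is regarded as a site of load sensing in cardiomyocytes. Ankrd1 is a widely used marker of pressure overload, and mutations in the human genes for several of these proteins cause cardiomyopathy.

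Left ventricular weight over tibia length, as the index given in the labels, was 8.97 ± 0.61 in HF mice, 6.98 ± 0.44 in no-HF mice and 5.14 ± 0.26 in sham mice (SD, n = 7, 7 and 5). The lung index was 20.4 ± 2.18 in HF mice, 9.10 ± 0.80 in no-HF mice and 8.59 ± 0.49 in sham mice. The cardiomyocyte markers, 9 of 9 above the filter, had a summed log2 signal of 18.7 to 18.8 in HF mice, 18.8 to 18.9 in no-HF mice and 18.8 to 18.9 in sham mice, and 6 of 6 skeletal muscle markers did not pass the filter. Here and below a summed log2 signal is the log2 of the sum of the markers' unlogged signals, so the brightest markers weigh most. The arrays were not alike in 3 technical measures. The 18S ribosomal control was high on the arrays of no-HF mice 5 to 7 and sham mice 1 to 3 (log2 signal 9.03 to 11.8) and low on the other 13 (5.14 to 7.62), among them all of the HF mice. The actin control's 3′ minus 5′ difference, a measure that moves with RNA integrity, was 0.66 to 0.91 in HF mice, 0.67 to 0.90 in no-HF mice and 0.94 to 1.02 in sham mice, so all 14 banded mice were below all 5 sham mice. Group and this measure can therefore not be fully told apart. The BioC hybridisation control was 8.60 to 9.20 on the arrays of no-HF mice 5 to 7 and 10.2 to 11.0 on the other 16. Within the high 18S set, no-HF mice 5 to 7 had an 18S signal of 10.99 to 11.76 and sham mice 1 to 3 one of 9.03 to 10.08. Group can therefore not be told apart from either control within that set, and the 18S block does not separate them. In bulk tissue, fewer cells of a type and less RNA per cell cannot be told apart either.

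Of the 10 genes, 6 were higher in HF mice than in sham mice: Ankrd1, Csrp3, Fhl1, Actn1, Des and Flnc (limma, Benjamini-Hochberg adjusted p under 0.05 over all 10733 genes). The same 6 genes were higher in no-HF mice than in sham mice. Between HF and no-HF mice, 2 of the 10 differed, Fhl1 and Actn1, and both were higher in HF mice. The brightest probe sets of the other 4 genes, Fhl2, Actn2, Ldb3 and Tcap, passed the test in no comparison. With the mean of its probe sets in place of the brightest, Ldb3 was 0.66 higher in HF than in sham mice (limma adjusted p = 0.00328). Its 3 probe sets, from brightest to dimmest, gave 0.08, 0.32 and 1.59. On the arrays with low 18S signal they gave −0.12, 0.20 and 0.37.

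These counts stand beside broad changes over all genes. In HF against sham mice, 39.3% of all tested genes passed the test and 20.4% were higher. In no-HF against sham mice 17.4% passed and 10.8% were higher, and between HF and no-HF mice 9.48% passed and 3.83% were higher. The split of all calls moved with the scaling. It was 2193 higher and 2027 lower in HF against sham mice as deposited, 1793 and 2587 after a further quantile normalisation, and 2467 and 1778 with each array centred on its median. In no-HF against sham mice it was 1164 and 701, 902 and 926, and 1520 and 474 under the same 3 scalings. The 6 genes stayed past the threshold under all 3 scalings in both comparisons with sham. Others joined them: after the further quantile normalisation Actn2 was called in HF against sham mice (0.19, limma adjusted p = 0.0358) and Ldb3 in no-HF against sham mice (0.23, limma adjusted p = 0.0284), and with centred arrays Ldb3 was called in no-HF against sham mice (0.25, limma adjusted p = 0.046). Those comparisons share the 5 sham mice, so their values are given side by side.

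The median log2 difference of the 10 genes was 0.50 in HF against sham mice, where it was 0.01 over all genes. It was 0.38 in no-HF against sham mice, against 0.02 over all genes, and 0.12 in HF against no-HF mice, against −0.01. The groups' ranges did not overlap for 6 of the 10 genes in HF against sham mice, for 4 in no-HF against sham mice (Ankrd1, Csrp3, Des and Flnc) and for 2 in HF against no-HF mice (Fhl1 and Actn1). Over all genes these shares were 17.6%, 7.67% and 2.64%.

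**Figure D1:**
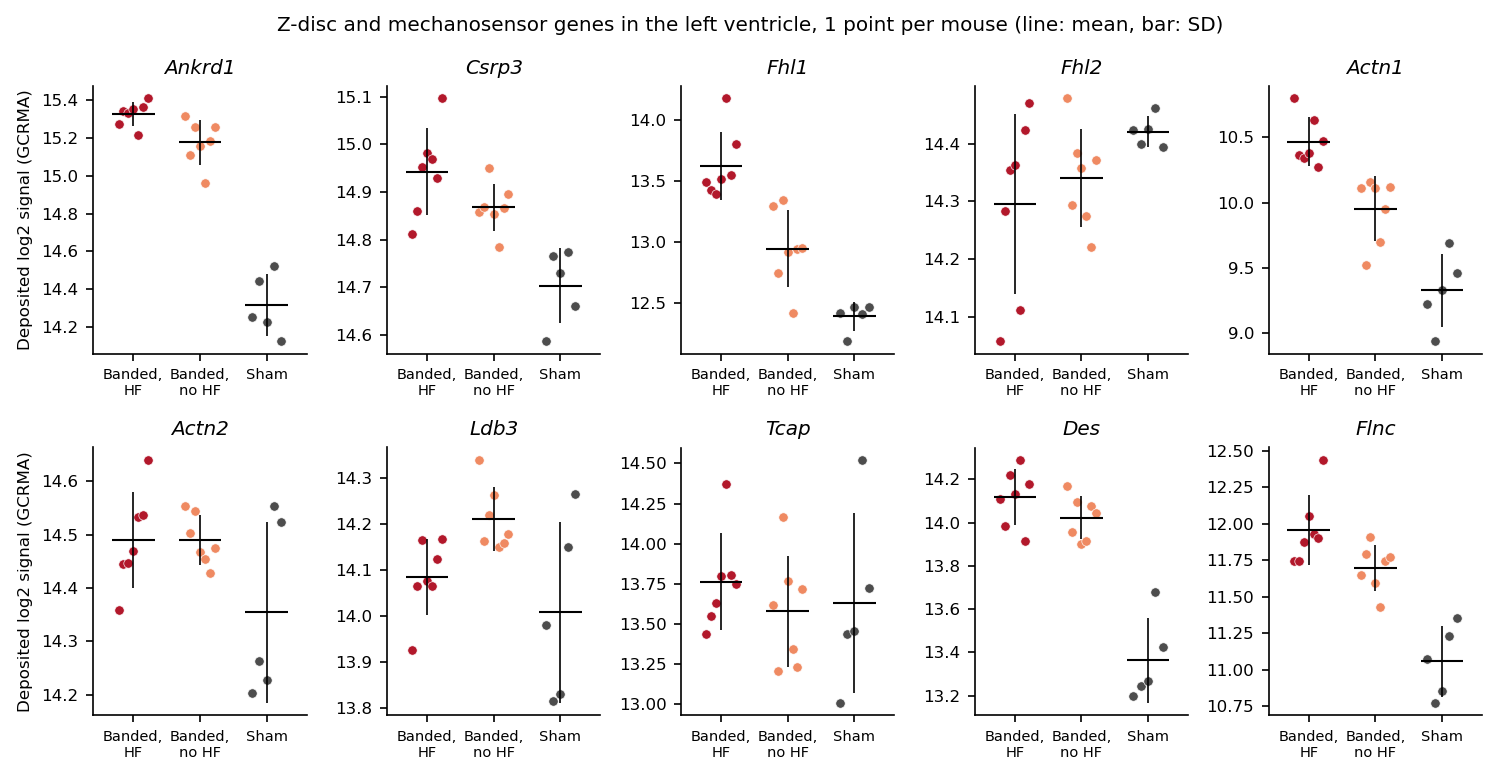
Deposited log2 signal (y axis, its own range in each panel) of the 10 genes in banded mice with heart failure (n = 7), banded mice without heart failure (n = 7) and sham mice (n = 5). Points are mice, lines are group means and bars are SDs. For Ankrd1, Csrp3, Des and Flnc all 14 banded mice lie above all 5 sham mice, Csrp3 by a narrow margin. For Fhl1 and Actn1 all 7 HF mice lie above all other mice, and for Fhl2, Actn2, Ldb3 and Tcap the groups overlap.

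Ankrd1 encodes a cardiac ankyrin repeat protein that binds the elastic part of titin and also enters the nucleus, where it acts on transcription. Its log2 signal ran from 15.22 over a median of 15.34 to 15.41 in HF mice and from 14.96 over 15.19 to 15.32 in no-HF mice. The 5 sham mice had 14.25, 14.44, 14.22, 14.52 and 14.12. Every banded mouse was thus above every sham mouse, and the HF and no-HF ranges overlapped. The level was 2.02-fold higher in HF than in sham mice, a log2 difference of 1.02 ± 0.07 (SE, limma adjusted p = 1.89e-08), and 1.82-fold higher in no-HF than in sham mice, 0.87 ± 0.07 (limma adjusted p = 7.28e-07). The HF minus no-HF difference was 0.15, with a 95% interval of 0.01 to 0.29, and did not pass the test (limma adjusted p = 0.157). A second, similarly bright probe set gave 1.30, 1.10 and 0.20 for the same differences.

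Fhl1 encodes a LIM-only protein that binds titin's elastic part and takes part in hypertrophic signalling. Here the banded groups were apart. The log2 signal ran from 13.40 over a median of 13.52 to 14.18 in HF mice and from 12.42 over 12.95 to 13.34 in no-HF mice, and the sham mice had 12.42, 12.19, 12.47, 12.41 and 12.47. All HF mice were above all no-HF mice, while 1 no-HF mouse, number 5, lay within the sham range. Fhl1 was 2.35-fold higher in HF than in sham mice (log2 difference 1.23 ± 0.15, limma adjusted p = 3.94e-06), and the difference was 0.82 with the actin covariate. It was 1.47-fold higher in no-HF than in sham mice (0.55 ± 0.15, limma adjusted p = 0.015) and 1.60-fold higher in HF than in no-HF mice (0.68 ± 0.13, limma adjusted p = 0.00559).

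The Fhl1 value for no-HF against sham mice was 0.13 (limma adjusted p = 0.629) with the actin measure as a covariate. On the 13 arrays of the low 18S set, which hold 2 sham mice, it was 0.64 (limma adjusted p = 0.13), and the HF minus no-HF difference there was 0.55 (limma adjusted p = 0.0935). With the 18S set as a block, which keeps all arrays, HF minus no-HF was 0.59 (limma adjusted p = 0.0199). A second probe set for Fhl1 was above the filter on 0 of 19 arrays.

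Actn1 encodes the non-muscle alpha-actinin of stress fibres and focal adhesions, which cross-links actin in many cell types. Its log2 signal ran from 10.27 over a median of 10.38 to 10.80 in HF mice and from 9.52 over 10.11 to 10.16 in no-HF mice. The sham mice had 9.23, 8.94, 9.33, 9.69 and 9.46. All HF mice were above all no-HF and sham mice, and no-HF mouse 2 (9.52) lay below the highest sham mouse. The level was 2.198-fold higher in HF than in sham mice (1.14 ± 0.13, limma adjusted p = 3.13e-06) and 1.54-fold higher in no-HF than in sham mice (0.62 ± 0.13, limma adjusted p = 0.00354). HF mice were 1.43-fold above no-HF mice (0.51 ± 0.12, limma adjusted p = 0.0139). That last call was lost when the 3 Actn1 probe sets were averaged (0.53, limma adjusted p = 0.0589) and on the low 18S set (0.49, limma adjusted p = 0.0822), and the no-HF against sham call was lost on the low set (0.40, limma adjusted p = 0.262) and with the actin covariate (0.51, limma adjusted p = 0.0898).

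Actn1 is also expressed outside cardiomyocytes, so markers of other cell types are given beside it. Of 7 fibroblast markers, 6 were higher in HF than in sham mice, 5 in no-HF than in sham mice and 3 in HF than in no-HF mice. Their summed log2 signal was 15.5 to 15.9 in HF mice, 14.7 to 15.5 in no-HF mice and 14.3 to 14.9 in sham mice, and all 7 were above the filter. Of 8 smooth muscle and pericyte markers, 2 were higher in each banded group than in sham mice, with a summed signal of 14.8 to 15.1 in HF mice, 14.8 to 15.1 in no-HF mice and 14.6 to 14.8 in sham mice. Over all genes 20.4% were higher in HF and 10.8% in no-HF than in sham mice, and 3.83% in HF than in no-HF mice. The part of fibroblasts, smooth muscle cells and pericytes in the Actn1 result was not tested.

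The promoters of Fhl1, Actn1 and Ankrd1 are shown because these genes had the largest differences between HF and sham mice. Each is the 250 bases before a RefSeq transcription start on GRCm38.p6, printed 5′ to 3′ on the gene's strand, and both RefSeq starts of Fhl1 are given, a choice made after the motif search. Capitals mark matches to a CArG box (the site of SRF), to the M-CAT core CATTCC (the site of TEAD factors) or to the GATA core AGATAA, read on either strand.
Ankrd1, chr19:36119845-36120094, minus strand: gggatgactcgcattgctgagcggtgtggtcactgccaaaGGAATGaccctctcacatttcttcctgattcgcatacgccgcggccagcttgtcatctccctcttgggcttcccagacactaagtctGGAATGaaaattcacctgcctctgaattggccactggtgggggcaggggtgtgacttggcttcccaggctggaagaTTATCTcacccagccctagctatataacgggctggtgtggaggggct
Fhl1, first start, chrX:56779433-56779682, plus strand: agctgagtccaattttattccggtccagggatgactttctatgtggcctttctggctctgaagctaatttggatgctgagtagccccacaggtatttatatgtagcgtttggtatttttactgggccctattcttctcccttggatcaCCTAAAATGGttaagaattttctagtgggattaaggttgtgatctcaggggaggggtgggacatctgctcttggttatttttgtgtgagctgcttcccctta
Fhl1, second start, chrX:56786277-56786526, plus strand: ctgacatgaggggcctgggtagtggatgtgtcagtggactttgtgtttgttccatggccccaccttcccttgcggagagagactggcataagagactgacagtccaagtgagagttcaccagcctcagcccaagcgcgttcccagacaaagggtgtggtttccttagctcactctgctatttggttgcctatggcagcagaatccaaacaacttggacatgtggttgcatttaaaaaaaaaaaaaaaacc
Actn1, chr12:80260364-80260613, minus strand: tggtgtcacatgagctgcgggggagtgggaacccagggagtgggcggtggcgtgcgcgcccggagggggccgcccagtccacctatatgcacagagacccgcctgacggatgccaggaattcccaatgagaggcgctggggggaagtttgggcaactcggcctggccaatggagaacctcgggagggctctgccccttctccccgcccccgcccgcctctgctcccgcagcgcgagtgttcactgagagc

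The Ankrd1 window held the M-CAT core at 210 and at 123 bases before the start and the GATA core at 47, each on the opposite strand. The first Fhl1 window held a CArG box at 102 bases before its start, and the second Fhl1 window and the Actn1 window held none of the motifs searched. RefSeq windows of 300 bases, of which 50 follow the start, were found for 9 of the 10 genes, 14 windows in all, and Tcap had no entry. A CArG box occurred in 5 of these 14 windows, of 3 genes (Fhl1, Fhl2 and Ldb3), and in 1.63% of all 32851 windows. The M-CAT core occurred in 3 of 14 windows, of Ankrd1 and Flnc, against 14.7% of all windows, the GATA core in 2 of 14 (Ankrd1 and Fhl2), against 11.2%, and a MEF2 site, searched by its consensus on both strands, in 1 of 14 (Fhl2), against 3.19%. The 2 windows of Ldb3 overlap and hold the same CArG box, and the 2 of Flnc overlap and hold the same M-CAT core, so these counts are not independent. Of the 3 genes with a CArG box, 1 (Fhl1) was higher in banded mice and for 2 (Fhl2 and Ldb3) the brightest probe set passed no test. No matches of different motifs overlapped. A match describes letters in a window, not a factor bound there.

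Fhl2 is a close relative of Fhl1, also a LIM-only protein that is abundant in heart and binds titin. Its log2 signal ran from 14.06 over a median of 14.35 to 14.47 in HF mice and from 14.22 over 14.36 to 14.48 in no-HF mice, against 14.42, 14.40, 14.43, 14.46 and 14.39 in sham mice. The 3 groups overlapped, and the sham mice were the closest together. The difference was −0.13 in HF against sham mice (95% interval −0.27 to 0.02, limma adjusted p = 0.156), −0.08 in no-HF against sham mice (−0.23 to 0.06, limma adjusted p = 0.449) and −0.04 in HF against no-HF mice (−0.18 to 0.09, limma adjusted p = 0.701). The upper bounds of all 3 intervals lie below the differences measured for Fhl1.

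Actn2 encodes sarcomeric alpha-actinin, the main cross-linker of actin filaments at the Z-disc. It had 14.36 over a median of 14.47 to 14.64 in HF mice, 14.43 over 14.47 to 14.55 in no-HF mice and 14.20, 14.26, 14.23, 14.55 and 14.52 in sham mice. The 3 lowest values were sham mice 1 to 3, whose arrays had high 18S signal, while sham mice 4 and 5 lay among the banded mice. The difference was 0.14 in each banded group against sham mice (95% interval −0.0045 to 0.28 and limma adjusted p = 0.116 for HF mice, −0.0051 to 0.28 and limma adjusted p = 0.174 for no-HF mice) and 0.00 between the banded groups (−0.13 to 0.13). On the low 18S set the 2 differences from sham were −0.05 and −0.02.

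Related genes were compared within arrays, as the difference between the log2 signals of each pair. Probe sets differ in brightness, so the difference itself has no meaning as a ratio of transcripts, and only its shift between groups is read. The shift also depends on the probe sets used. In HF against sham mice those of Actn1 gave 1.14, 1.33 and 1.99, and those of Ldb3 gave 0.08, 0.32 and 1.59. A shift between related genes can thus not by itself show that their transcripts changed unequally. Fhl1 minus Fhl2 was −0.67 ± 0.35 in HF mice, −1.39 ± 0.27 in no-HF mice and −2.03 ± 0.11 in sham mice (SD, n = 7, 7 and 5). The shift was 1.36 for HF against sham mice (exact two-sided permutation p = 0.00126, adjusted over 6 tests 0.00189), 0.64 for no-HF against sham mice (exact p = 0.00253, adjusted 0.00303) and 0.72 for HF against no-HF mice (exact p = 0.000583, adjusted 0.00175). No value of one group reached into the range of another.

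Actn1 minus Actn2 was −4.02 ± 0.23 in HF mice, −4.54 ± 0.24 in no-HF mice and −5.02 ± 0.18 in sham mice. It shifted by 1.001 for HF against sham mice (exact two-sided permutation p = 0.00126, adjusted 0.00189), by 0.49 for no-HF against sham mice (exact p = 0.00631, adjusted 0.00631) and by 0.51 for HF against no-HF mice (exact p = 0.000583, adjusted 0.00175). The HF mice were apart from both other groups, and the no-HF and sham ranges overlapped, −4.98 to −4.35 against −5.33 to −4.86. The pairs were chosen with earlier results of these data known, so these p-values are descriptive. For both pairs they are the lowest that the group sizes allow in HF against sham (792 arrangements) and HF against no-HF mice (3432 arrangements). There they do not measure the size of the shift.

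**Figure D2:**
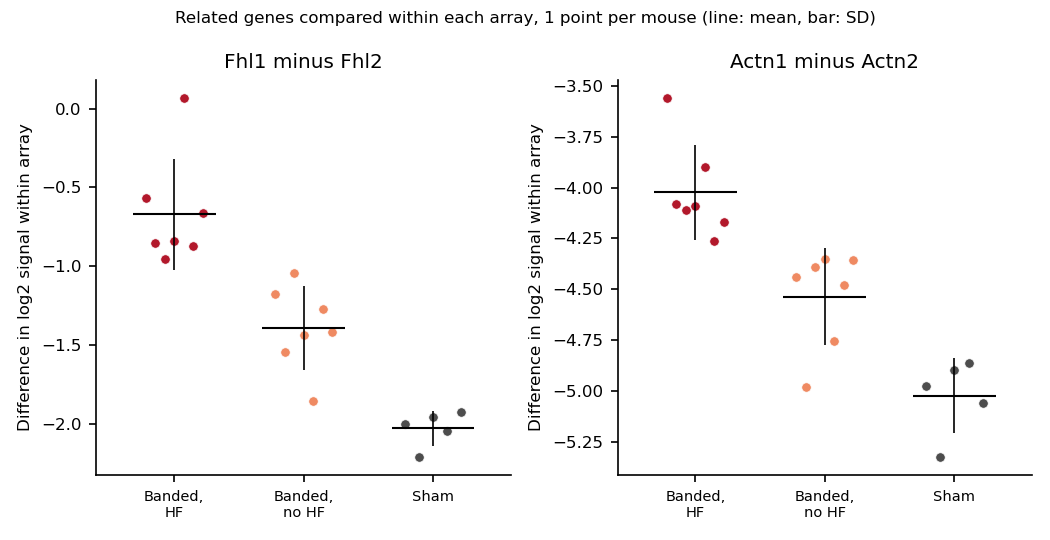
Log2 signal of Fhl1 minus that of Fhl2 (left) and of Actn1 minus that of Actn2 (right) on each array, for banded mice with heart failure (n = 7), banded mice without heart failure (n = 7) and sham mice (n = 5). Points are mice, lines are group means and bars are SDs. The group means of Fhl1 minus Fhl2 are −0.67, −1.39 and −2.03, and those of Actn1 minus Actn2 are −4.02, −4.54 and −5.02.

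Des encodes desmin, the intermediate filament that ties Z-discs of neighbouring myofibrils to each other and to the cell's edge. Its log2 signal ran from 13.92 over a median of 14.13 to 14.29 in HF mice and from 13.90 over 14.04 to 14.17 in no-HF mice, against 13.20, 13.24, 13.27, 13.68 and 13.42 in sham mice. Like Ankrd1, it separated all banded mice from all sham mice and did not separate the banded groups. Des was 1.69-fold higher in HF than in sham mice (0.76 ± 0.08, limma adjusted p = 1.86e-06) and 1.58-fold higher in no-HF than in sham mice (0.66 ± 0.08, limma adjusted p = 4.61e-05). The HF minus no-HF difference was 0.10 (95% interval −0.06 to 0.26, limma adjusted p = 0.456).

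Flnc encodes filamin C, the muscle filamin that cross-links actin at the Z-disc and at sites of damage in the sarcomere. It had 11.75 over a median of 11.90 to 12.44 in HF mice, 11.43 over 11.75 to 11.91 in no-HF mice and 11.07, 10.77, 10.85, 11.23 and 11.35 in sham mice. All banded mice were above all sham mice, and the highest value was HF mouse 7. Flnc was 1.86-fold higher in HF than in sham mice (0.90 ± 0.12, limma adjusted p = 1.45e-05) and 1.56-fold higher in no-HF than in sham mice (0.64 ± 0.12, limma adjusted p = 0.00149). The HF minus no-HF difference was 0.26 (95% interval 0.02 to 0.49, limma adjusted p = 0.15). The brightest probe set is of a class that can share probes with other sequences, and a second probe set gave 1.01, 0.78 and 0.23 for the 3 differences. The no-HF against sham call was lost on the low 18S set (0.44, limma adjusted p = 0.171) and with the actin covariate (0.47, limma adjusted p = 0.0735).

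Csrp3 encodes muscle LIM protein, which binds alpha-actinin and telethonin at the Z-disc and shuttles to the nucleus. Its differences were small. The log2 signal ran from 14.81 over a median of 14.95 to 15.10 in HF mice and from 14.79 over 14.87 to 14.95 in no-HF mice, against 14.59, 14.77, 14.73, 14.77 and 14.66 in sham mice. The lowest no-HF mouse was just above the highest sham mouse. Csrp3 was 1.18-fold higher in HF than in sham mice (0.24 ± 0.05, limma adjusted p = 0.00175), and the no-HF against sham difference was 0.16 ± 0.05 (limma adjusted p = 0.0416). The HF call was lost with the actin covariate (0.18, limma adjusted p = 0.0892). The no-HF call was lost with the actin covariate (0.10, limma adjusted p = 0.401), on the low 18S set (0.17, limma adjusted p = 0.302) and in 13 of 19 fits that left out 1 mouse.

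Ldb3 encodes a PDZ and LIM domain protein, known as Cypher or ZASP, that binds alpha-actinin and keeps the Z-disc intact under load. Its brightest probe set had 13.93 over a median of 14.08 to 14.17 in HF mice, 14.15 over 14.18 to 14.34 in no-HF mice and 13.98, 13.82, 13.83, 14.15 and 14.27 in sham mice. All no-HF mice were above 5 of the 7 HF mice, and the sham mice overlapped with both groups. The difference was 0.08 in HF against sham mice (limma adjusted p = 0.433), 0.20 in no-HF against sham mice (limma adjusted p = 0.0643) and −0.13 in HF against no-HF mice (95% interval −0.27 to 0.01, limma adjusted p = 0.245). The no-HF against sham value passed the test under 5 alternative settings, and the HF minus no-HF value did with the 18S set as a block (−0.21, limma adjusted p = 0.0376).

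The probe sets of Ldb3 did not give the same values. The second one was higher in HF than in sham mice by 0.32 (limma adjusted p = 0.000749) and in no-HF than in sham mice by 0.21 (limma adjusted p = 0.0343). These p-values are adjusted over all 18595 probe sets with 1 symbol that passed the filter. The dimmest had 10.83 over a median of 11.25 to 11.57 in HF mice, 10.86, 11.16, 11.28, 11.08, 9.87, 9.80 and 9.81 in no-HF mice 1 to 7, and 8.70, 8.88, 8.90, 11.06 and 10.67 in sham mice 1 to 5. No-HF mice 5 to 7 and sham mice 1 to 3, the arrays with high 18S signal, were the 6 lowest. For that probe set the HF minus sham difference was 1.59 over all arrays (limma adjusted p = 0.00418) and 0.37 on the low 18S set. The no-HF minus sham difference was 0.91 over all arrays (limma adjusted p = 0.126). Within the high 18S set the no-HF mice were at 9.80 to 9.87 and the sham mice at 8.70 to 8.90, and within the low set the difference was 0.23. The no-HF and sham arrays of the high set also differed in the 18S and BioC controls.

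The 3 probe sets of Actn1 also differed in size of change, and only the brightest passed the test between HF and no-HF mice. There the second gave 0.69 (limma adjusted p = 0.0707) and the dimmest 0.38 (limma adjusted p = 0.388). In no-HF against sham mice the second gave 0.65 (limma adjusted p = 0.0791) and the dimmest 1.61 (limma adjusted p = 0.000973). The second, in the order of brightness, had 6.44 over a median of 6.84 to 7.00 in HF mice, 6.85, 5.87, 6.33, 6.38, 5.68, 5.73 and 5.89 in no-HF mice 1 to 7, and 5.05, 4.88, 5.01, 6.14 and 6.21 in sham mice 1 to 5. Sham mice 1 to 3 were the lowest, and no-HF mice 5 to 7, also of the high 18S set, were below 3 of no-HF mice 1 to 4. It gave 1.33 for HF against sham mice over all arrays (limma adjusted p = 0.000355) and 0.62 on the low 18S set, where the brightest gave 1.14 and 0.89. The dimmest gave 1.99 (limma adjusted p = 2.78e-05) and 1.11. Its sham mice had 3.78 to 5.56, and sham mouse 1 was below the filter of 4. For that probe set the no-HF minus sham difference was 2.48 within the high 18S set and 0.52 within the low set. By group means all 3 probe sets were higher in banded than in sham mice within each 18S set that held both groups. In the high set the no-HF and sham arrays also differed in the 18S and BioC controls. The low set has 2 sham mice, and ranges overlapped there. No-HF mouse 2 lay below both of them for the second probe set (5.87 against 6.14 and 6.21). For the brightest it lay below sham mouse 4 (9.52 against 9.69).

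**Figure D3:**
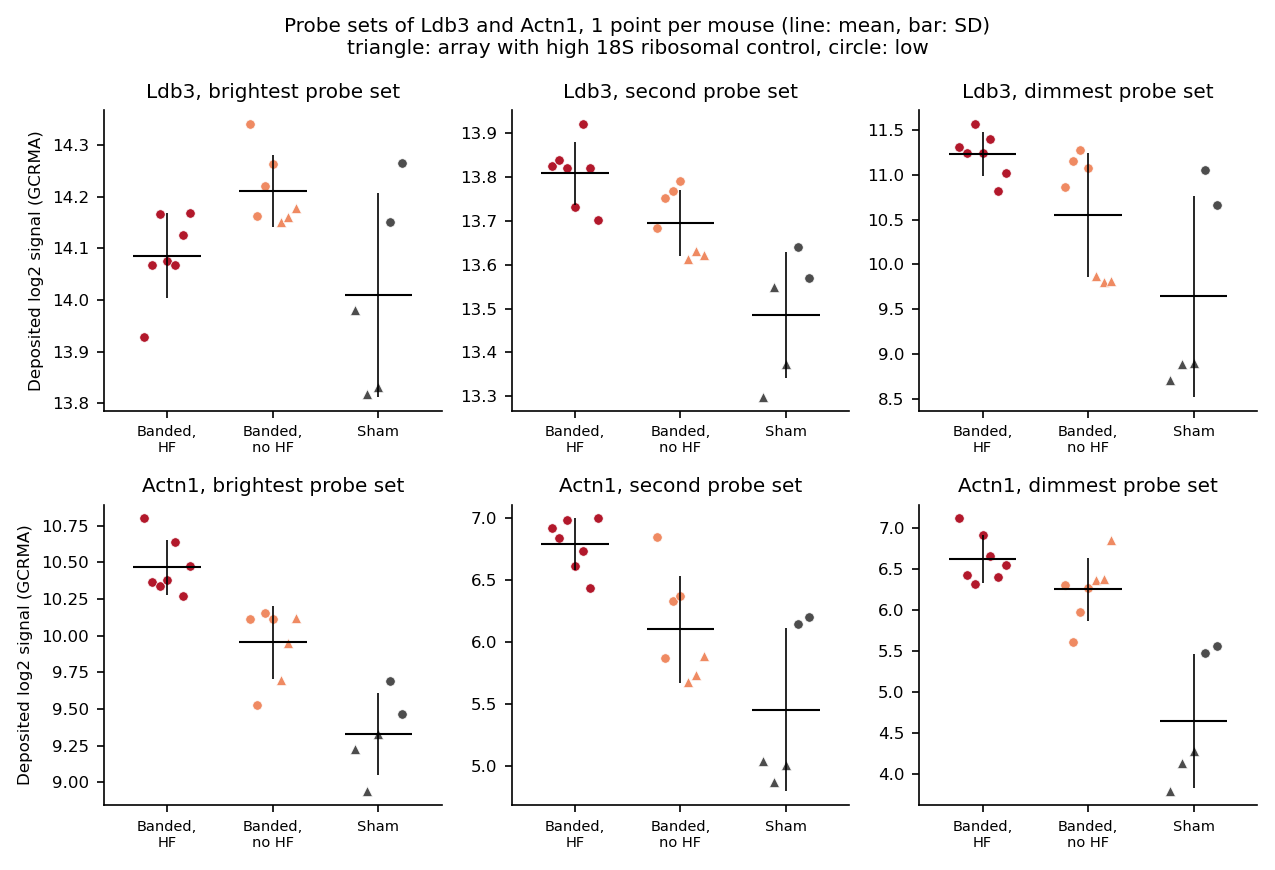
Deposited log2 signal of the 3 probe sets of Ldb3 (top) and of Actn1 (bottom) in banded mice with heart failure (n = 7), banded mice without heart failure (n = 7) and sham mice (n = 5). Triangles are arrays with a high 18S ribosomal control and circles those with a low one, lines are group means and bars are SDs. In the dimmest Ldb3 probe set the 6 triangles lie between 8.70 and 9.87 and the 13 circles between 10.67 and 11.57.

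Tcap encodes telethonin, which joins the ends of titin molecules in the Z-disc. It had 13.44 over a median of 13.75 to 14.37 in HF mice, 13.21 over 13.62 to 14.17 in no-HF mice and 13.01, 13.44, 13.45, 14.52 and 13.72 in sham mice. The widest spread was within the sham group, which held both the lowest and the highest value of all mice. The difference was 0.13 in HF against sham mice (95% interval −0.32 to 0.59, limma adjusted p = 0.656), −0.05 in no-HF against sham mice (−0.51 to 0.41, limma adjusted p = 0.903) and 0.18 in HF against no-HF mice (−0.23 to 0.60, limma adjusted p = 0.599).

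**Figure D4:**
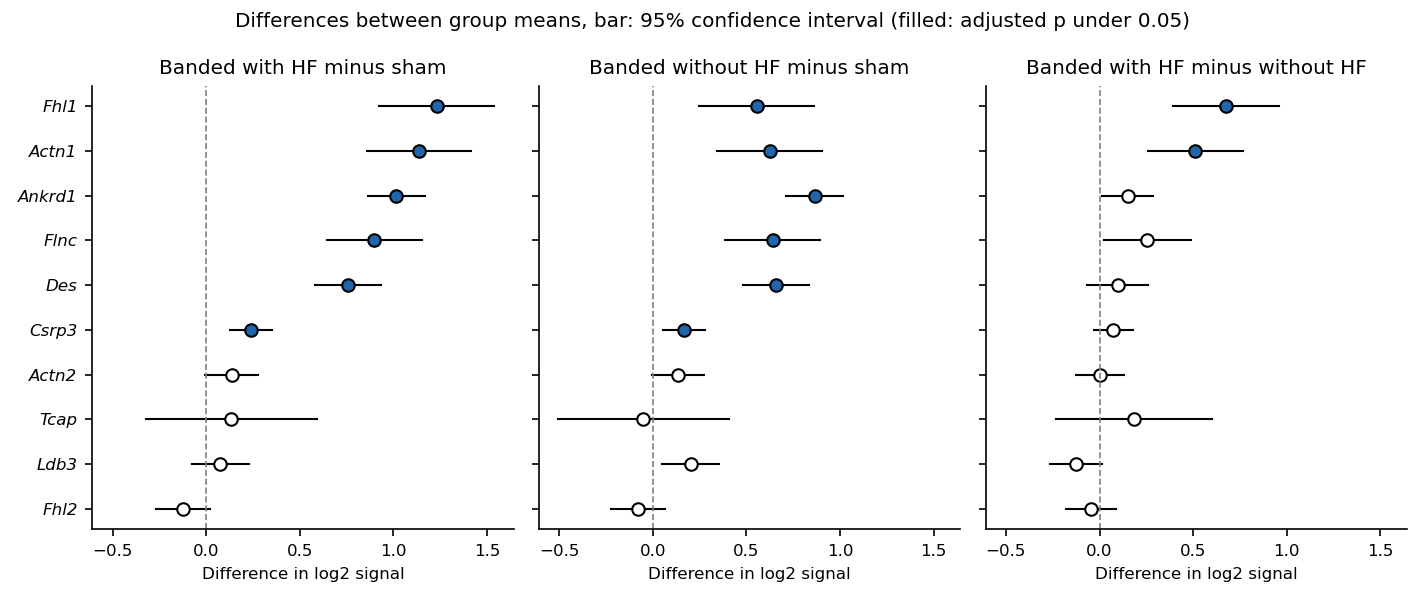
Differences between group means in log2 signal (x axis) of the 10 genes, ordered by the HF minus sham difference, for banded mice with heart failure minus sham mice (left), banded mice without heart failure minus sham mice (middle) and banded mice with minus without heart failure (right). Bars are 95% confidence intervals and filled points have a limma adjusted p under 0.05. The filled points number 6, 6 and 2, and in the right panel they are Fhl1 at 0.68 and Actn1 at 0.51.

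The levels were also set against left ventricular weight over tibia length among the 7 mice of each banded group, 20 relations in all. With Benjamini-Hochberg adjustment over the 20, 0 passed for Pearson's r (lowest adjusted exact permutation p = 0.247) or Spearman's rho (lowest 0.44). Before adjustment 4 had an exact permutation p under 0.05 for r and 1 for rho, all in no-HF mice. Ankrd1 had r = 0.76 (exact p = 0.0444) and rho = 0.79 (exact p = 0.048), and r was 0.33 without the 2 mice whose weight was farthest from the median. For Fhl1 r was 0.82 (exact p = 0.0204) and rho 0.71 (exact p = 0.0881), and r was 0.59 without those mice. Actn1 had r = 0.78 (exact p = 0.0444) and rho = 0.49 (exact p = 0.278), with r = −0.14 without them, and Ldb3 had r = 0.76 (exact p = 0.0494) and rho = 0.54 (exact p = 0.236), with r = 0.68. The relation of Actn1 thus rested on those 2 mice. All 7 HF mice are of the low 18S set, and the no-HF mice split into 4 and 3, too few for a value within a set.

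Of 36 other Z-disc genes listed, 30 were tested, and 13 of them were higher and 3 lower in HF than in sham mice, 11 higher and 3 lower in no-HF than in sham mice, and 3 higher and 2 lower in HF than in no-HF mice. Over all genes 20.4% were higher and 18.9% lower in the first comparison, 10.8% and 6.53% in the second, and 3.83% and 5.65% between the banded groups. The medians over the 30 were 0.20, 0.24 and 0.03 on the log2 scale, against 0.01, 0.02 and −0.01 over all genes. On the low 18S set the counts were 9 and 3, 3 and 0, and 0 and 1, and with the actin covariate they were 8 and 3, 3 and 0, and 5 and 2. Over all 10733 genes the low set gave 1462 and 1208, 210 and 133, and 66 and 83. The actin covariate gave 1597 and 1106, 844 and 355, and 504 and 783 over all genes. Myoz1, Fhl3, Ankrd2 and Actn3, which are known mainly from skeletal muscle or other tissues, did not pass the filter. The list also holds Actn4, Flna, Csrp1 and Csrp2, which are not particular to heart muscle. All of these were among the genes counted as higher in HF than in sham mice.

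Ankrd23, a relative of Ankrd1 that binds the same part of titin, was higher by 1.40 ± 0.10 in HF than in sham mice (limma adjusted p = 2.64e-08) and by 1.20 ± 0.10 in no-HF than in sham mice (limma adjusted p = 9.21e-07). Its log2 signal was 13.39 to 13.90 in HF mice, 13.37 to 13.69 in no-HF mice and 12.10 to 12.76 in sham mice, so banded and sham mice did not overlap. Synpo2l, an actin-binding protein of the Z-disc, was higher by 1.38 ± 0.14 in HF mice (limma adjusted p = 8.84e-07) and by 0.999 ± 0.14 in no-HF mice (limma adjusted p = 0.000144). Csrp2, a relative of Csrp3 best known from smooth muscle, was higher by 1.21 ± 0.19 in HF than in sham mice (limma adjusted p = 6.05e-05). It was higher by 0.58 ± 0.19 in no-HF than in sham mice (limma adjusted p = 0.038) and by 0.63 ± 0.17 in HF than in no-HF mice (limma adjusted p = 0.0277). The last value was 0.52 (limma adjusted p = 0.0827) with the 18S set as a block.

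Among the genes that were lower, Cmya5 encodes myospryn, a binding partner of desmin, and Fhod3 a formin that builds sarcomeric actin. Cmya5 had 12.77 to 13.02 in HF mice, 12.91 to 13.33 in no-HF mice and 13.34 to 13.46 in sham mice, and fell by 0.47 in HF against sham mice (SE 0.07, limma adjusted p = 4.53e-05), by 0.24 in no-HF against sham mice (limma adjusted p = 0.0231) and by 0.22 in HF against no-HF mice (limma adjusted p = 0.034). Fhod3 fell by 0.35 in HF against sham mice (SE 0.08, limma adjusted p = 0.0025) and by 0.27 in no-HF against sham mice (limma adjusted p = 0.0325). Nebl, which encodes nebulette of the Z-disc, fell by 0.24 in HF against sham mice (limma adjusted p = 0.00769), but the mean of its probe sets gave −0.02. In no-HF against sham mice its brightest probe set gave −0.21 (limma adjusted p = 0.0348). Between the banded groups, Palld, an actin-binding scaffold, was 0.25 higher in HF mice (limma adjusted p = 0.0276). Mypn, which links titin, nebulin family proteins and alpha-actinin, gave −0.32 there (limma adjusted p = 0.047). HF mice differed little from sham mice in both, by 0.04 for Palld (limma adjusted p = 0.715) and 0.02 for Mypn (limma adjusted p = 0.89). No-HF mice differed from sham mice by −0.21 for Palld (limma adjusted p = 0.0568) and 0.35 for Mypn (limma adjusted p = 0.0349). With the 18S set as a block neither HF minus no-HF difference passed (Palld 0.17, limma adjusted p = 0.0836, and Mypn −0.17, limma adjusted p = 0.137). The calls of Fhod3 and Cmya5 in no-HF against sham mice were lost when arrays were centred (limma adjusted p = 0.0794 and 0.059).

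The costamere ties the Z-disc to the cell membrane and the matrix. Of 20 listed costamere and adhesion genes 18 were tested, and 9 were higher and 1 lower in HF than in sham mice, 5 higher and 1 lower in no-HF than in sham mice, and 1 was higher in HF than in no-HF mice. The shares over all genes were 20.4% higher and 18.9% lower, 10.8% and 6.53%, and 3.83% and 5.65%. The list's medians were 0.31, 0.22 and 0.08, against 0.01, 0.02 and −0.01 over all genes. The counts were 4 and 1, 1 and 0, and 0 and 0 on the low 18S set, and 5 and 1, 1 and 1, and 1 and 0 with the actin covariate. Zyx, which encodes zyxin, an adhesion protein that responds to tension, had 9.55 to 10.08 in HF mice, 9.15 to 9.87 in no-HF mice and 8.07 to 9.12 in sham mice. It was higher by 1.13 ± 0.16 in HF than in sham mice (limma adjusted p = 2.87e-05) and by 0.79 ± 0.16 in no-HF than in sham mice (limma adjusted p = 0.00294). The no-HF call of Zyx was lost on the low 18S set (0.48, limma adjusted p = 0.186) and with the actin covariate (0.46, limma adjusted p = 0.163).

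Sorbs3, which encodes vinexin, a partner of vinculin, was higher by 0.97 ± 0.23 in HF than in sham mice (limma adjusted p = 0.00231) and by 0.69 ± 0.23 in no-HF than in sham mice (limma adjusted p = 0.042). On the low 18S set these were 0.37 (limma adjusted p = 0.314) and 0.23 (limma adjusted p = 0.706). Itgb1bp2, which encodes melusin, a muscle protein that binds the integrin beta subunit, was the 1 lower gene, with 11.75 to 12.11 in HF mice, 12.00 to 12.16 in no-HF mice and 12.30 to 12.45 in sham mice. It fell by 0.42 in HF against sham mice (SE 0.06, limma adjusted p = 5.1e-05) and by 0.29 in no-HF against sham mice (limma adjusted p = 0.00436), a call lost on the low 18S set (−0.26, limma adjusted p = 0.178). Sorbs2, an adaptor at the Z-disc and at adhesions, was 0.23 higher in HF than in no-HF mice (limma adjusted p = 0.0328) and 0.15 higher with the 18S set as a block (limma adjusted p = 0.0992). Lims1, an adaptor of integrin-linked kinase, was 1.35 higher in HF than in sham mice (limma adjusted p = 0.0301), but −0.22 on the low 18S set. Its sham mice ran from 8.84 to 11.69.

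Of 14 listed genes of SRF and YAP mechanosignalling 12 were tested, and 6 were higher in HF than in sham mice and 4 in no-HF than in sham mice. Over all genes 20.4% and 10.8% were higher in these comparisons. Between HF and no-HF mice limma called 0 of the 12, also with a trended and robust prior, and 2 had an unadjusted p under 0.05. The list's medians were 0.21, 0.18 and 0.00, against 0.01, 0.02 and −0.01 over all genes. Piezo1, a stretch-gated ion channel, was higher by 0.54 ± 0.10 in HF than in sham mice (limma adjusted p = 0.000424) and by 0.38 ± 0.10 in no-HF than in sham mice (limma adjusted p = 0.0175). Wwtr1, which encodes TAZ, a partner of TEAD factors, was higher by 0.43 ± 0.08 in HF than in sham mice (limma adjusted p = 0.00055) and by 0.27 ± 0.08 in no-HF than in sham mice (limma adjusted p = 0.0347). Srf itself was higher by 0.32 ± 0.12 in HF than in sham mice (limma adjusted p = 0.0376) and by 0.40 ± 0.12 in no-HF than in sham mice (limma adjusted p = 0.0254), and the first of these calls was lost when values were quantile normalised again (0.27, limma adjusted p = 0.0814) and in 9 of 19 fits that left out 1 mouse. The no-HF call of Piezo1 was lost on the low 18S set (0.29, limma adjusted p = 0.273). On that set 4 genes of the list were higher in HF than in sham mice and 1 in no-HF than in sham mice.

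**Figure D5:**
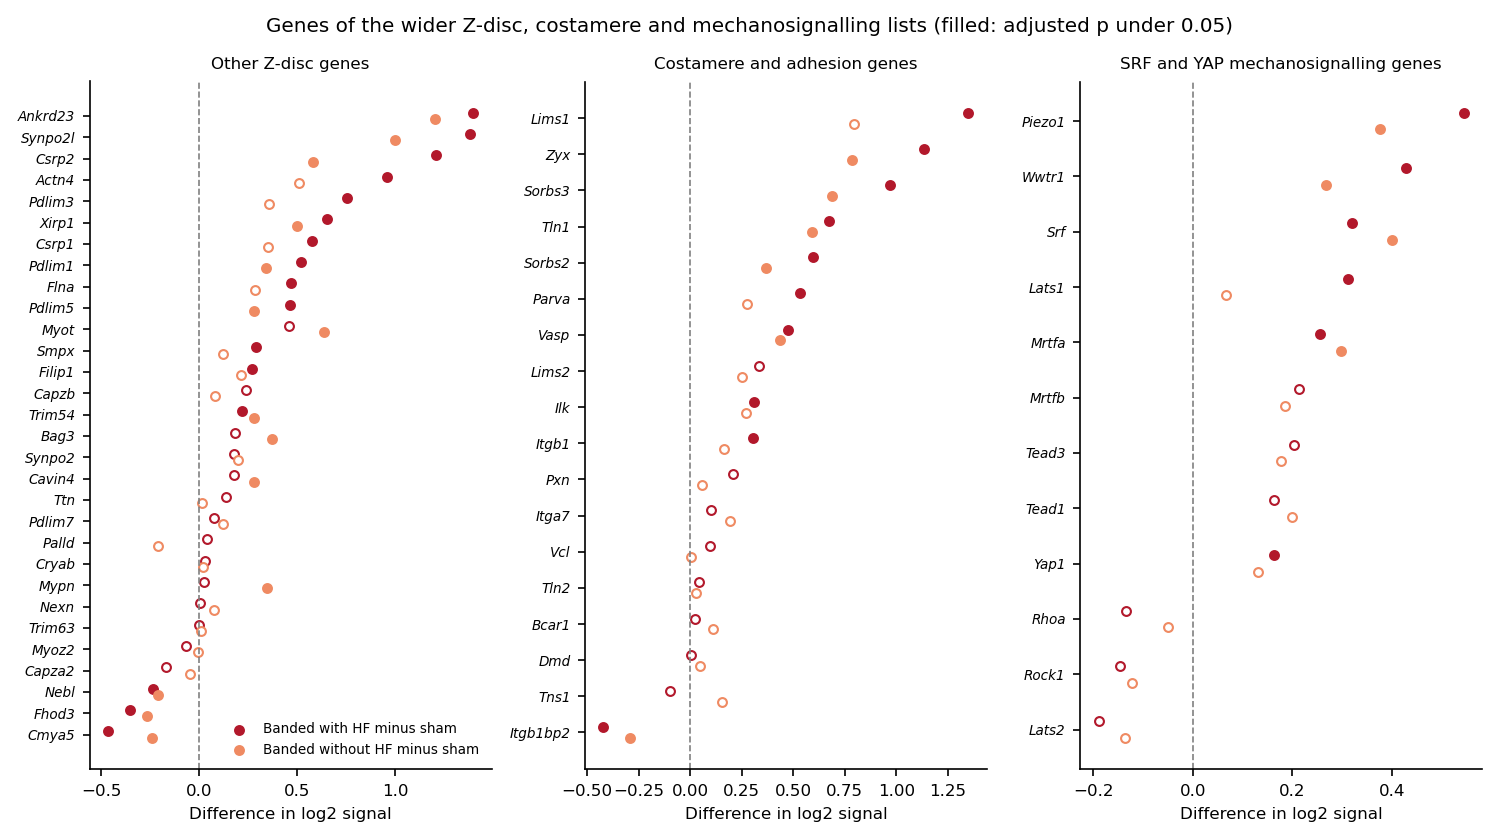
Log2 differences (x axis) of the 30 other Z-disc genes (left), 18 costamere and adhesion genes (middle) and 12 SRF and YAP mechanosignalling genes (right) that were tested, ordered by the HF minus sham value. Dark points are banded mice with heart failure minus sham mice and light points banded mice without heart failure minus sham mice, and filled points have a limma adjusted p under 0.05. Ankrd23 lies highest in the left panel at 1.40 and 1.20, and Cmya5 lowest at −0.47 and −0.24.

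Markers of other cell types in the same arrays were as follows. Of 9 cardiomyocyte markers, 1 (Mybpc3) was higher and 4 (Tnni3, Ryr2, Pln and Myh6) were lower in HF than in sham mice, by at most 0.27 on the log2 scale; these 5 and the atrial markers are named because of their values. Of 6 endothelial markers, 2 were higher in HF than in sham mice and 1 in no-HF than in sham mice, and 1 was lower in HF than in no-HF mice. Over all genes 20.4% were higher and 18.9% lower in HF than in sham mice. The share higher in no-HF than in sham mice was 10.8%, and that lower in HF than in no-HF mice was 5.65%. Of 6 macrophage and leukocyte markers limma called 0 in any comparison, and 1 had an unadjusted p under 0.05 (lower in HF than in sham mice). The summed log2 signal of 4 atrial markers ran from 8.14 to 15.4 in HF mice, 10.5 to 14.8 in no-HF mice and 9.38 to 13.7 in sham mice. Of these 4, 1 was called, Myl7, which was lower in HF than in no-HF mice, a log2 difference of −4.93 (limma adjusted p = 0.0457), with 16 of 19 arrays above the filter. Sln and Myl4 gave −3.81 and −2.63 in that comparison (limma adjusted p = 0.0968 and 0.111). Whether the share of these cells has a part in the values of the 10 genes was not tested.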

How the data were processed

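RNA of the left ventricle of 19 mice was hybridised to Affymetrix arrays with 45101 probe sets, 1 array per mouse with no pooling named in the labels. The submitters' processing notes name GCRMA as the method behind the deposited log2 values, which lie between 2.19 and 16.77. Neither a GCRMA version nor a genome build is given in the sources used here. The method models background from probe sequence and normalises between arrays, and it pulls dim probe sets toward a floor, which shrinks their differences. Probe sets were named from the platform annotation: 34958 had 1 symbol, 932 several, and 9211 were not listed. The filter kept probe sets whose log2 signal exceeded 4 on 5 or more arrays, and the brightest of a gene was used. All 3 comparisons came from a single linear model of the 19 arrays with group alone (lmFit and eBayes of limma 3.58.1 in R 4.3.3), with Benjamini-Hochberg adjustment over 10733 genes and a threshold of 0.05. The ± beside a log2 difference is its standard error, and that beside a group mean is the SD. Values of other probe sets come from a separate fit of the same model. It covered the 18595 probe sets with 1 symbol among the 20497 that passed, and its p-values are adjusted over those 18595. Exact permutation tests (Python 3.11.15, scipy 1.17.1) served paralogue differences and correlations.

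The 10 genes, the further lists and the tests were chosen with earlier results of these data known. All 10 genes are described. From each further list the text names, of the genes past the threshold in HF against sham mice, the 3 that rose most and the 3 that fell most, and 2 and 2 in each other comparison. Actn4, Flna and Csrp1 are named besides because they are not particular to heart muscle. Promoters are of the 3 genes with the largest change. The number of arrays limits the precision. Nothing in the labels says beyond 1 mouse per array how replicates were made, and mice are numbered in accession order. The scripts were tested on simulated data. Alternatives were no filter, the mean of probe sets, 2 scalings, animal ID series or 18S set as a block, the low 18S set alone, the actin measure as a covariate, a trended and robust prior, only the 2 groups compared, and leaving out each mouse. For the further lists they were added after the data had been seen.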

Additional observations from a re-analysis of the deposited data

Results flagged for a closer look

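Among the 30 sets made by 10 genes in 3 groups, 3 held a mouse that stood apart from the rest of its group by Dixon's criterion, which by chance marks about 1 set in 20. Fhl1 in sham mouse 2 was 12.19, and the next lowest sham mouse had 12.41. Ldb3 in HF mouse 1 was 13.93, with the next HF mouse at 14.07. Tcap in HF mouse 5 was 14.37, with the next at 13.81. A second probe set of Des, which did not pass the filter, read 4.77 in HF mouse 5, where the highest sham mouse had 2.72.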

How the results depend on the processing

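No paired analysis was possible because the labels give the mice no replicate numbers that groups share. The calls of Ankrd1, Fhl1, Actn1, Des and Flnc in HF against sham mice held under every alternative run. All 6 paralogue shifts held in all fits without 1 mouse. The 3 of Actn1 minus Actn2 also held under the mean of probe sets, which cannot change Fhl1 minus Fhl2. The paralogue shifts were not run under the other alternatives, among them the 18S block, the low 18S set and the actin covariate. The low 18S set holds 13 arrays with 2 sham mice, so its counts rest on fewer arrays. On it, all-gene calls were 2670 (HF against sham, 4220 in the fit of all arrays), 343 (no HF against sham, 1865) and 149 (HF against no HF, 1017), and the 10 genes had 2 calls in no HF against sham mice (6 with all arrays) and 0 in HF against no-HF mice (limma, 2 higher and 1 lower at an unadjusted p under 0.05). With the actin covariate the all-gene counts were 2703 in HF and 1199 in no HF against sham mice, and the 10 genes had 2 calls in no HF against sham mice. The mean of probe sets left 1 of 2 calls between HF and no-HF mice. Leaving out 1 mouse gave 1185 (without sham mouse 2) to 2200 (without sham mouse 4) all-gene calls in no HF against sham mice. In HF against no-HF mice it gave 508 (without no-HF mouse 5) to 1146 (without no-HF mouse 1), with 672 without no-HF mouse 6 and 599 without HF mouse 2.

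Signs turned for genes whose brightest probe set passed no test and for Lims1. Actn2 was −0.048 in HF and −0.021 in no HF against sham mice on the low set, and −0.015 and −0.018 with the actin covariate. Between HF and no-HF mice it was −0.011 with centred arrays, −0.024 with the ID series as a block, −0.070 with the 18S block, −0.027 on the low set, and −0.025 to 0.022 over fits without 1 mouse. Ldb3 in HF against sham mice was −0.035 with the 18S block, −0.12 on the low set and −0.062 with the actin covariate, and 0.22 for HF against no-HF mice with the mean of probe sets. Tcap in HF against sham mice was −0.0061 with the ID block, −0.16 with the 18S block, −0.36 on the low set and −0.33 with the actin covariate, and −0.026 for HF against no-HF mice with the 18S block. Over fits without 1 mouse it ran from −0.020 to 0.36 in HF and from −0.20 to 0.17 in no HF against sham mice, lowest without sham mouse 1 and highest without sham mouse 4 in both. Lims1 in HF against sham mice was −0.22 on the low set. Without sham mouse 4 or 5, Actn2 in HF against sham mice passed the test (0.19 and 0.18, limma adjusted p = 0.0299 and 0.0444), and so did Ldb3 in no HF against sham mice (0.24 and 0.27, limma adjusted p = 0.0358 and 0.0122). Csrp3 in no HF against sham mice lost its call without any of no-HF mice 1 to 4, 6 and 7, HF mice 3, 4 and 6 or sham mice 1 to 3 and 5 (0.14 to 0.18). The named genes of the further lists lost the calls they were named for in 66 of 513 fits without 1 mouse. The causes were not tested.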
